A study of Homo sapiens with 12 samples.

Results

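HMOX1 and 9 genes of the NRF2 antioxidant system were followed through 12 RNA sequencing libraries of the human cell lines KGN and COV434. The study's authors describe both lines as derived from granulosa cell tumors of the ovary. The 10 members, of 58735 genes in the expression table, were HMOX1, NQO1, GCLC, GCLM, SRXN1, TXNRD1, ME1, OSGIN1, NFE2L2 and KEAP1. They were chosen by name, because HMOX1 leads the genes that differ in the KGN columns after 77-39, so the KGN contrast was selected on its own readout. Members are described there with no p-value, and their counts of calls in it support nothing. Each line was left untreated or exposed to 77-39, an inhibitor of the mitochondrial deacetylase SIRT3, for 72 h, with 3 libraries in each of the 4 groups. All groups share a genotype labelled wild type and a medium with heat-inactivated serum. The labels give the dose as 10 with a unit that cannot be read as a concentration, and the same treatment text stands on the untreated libraries, which are known from their titles. Nothing in the labels says whether libraries came from separate cultures, so p-values measure the spread between these libraries, which may be technical.

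NRF2 is the transcription factor encoded by NFE2L2. KEAP1 binds it and hands it to a CUL3 ubiquitin ligase for destruction, and electrophiles or oxidants that modify KEAP1 let NRF2 build up and bind antioxidant response elements together with a small MAF protein (MAFF, MAFG or MAFK). BACH1 competes for the same elements, represses HMOX1 in particular, and is released when it binds heme. HMOX1, the inducible heme oxygenase, breaks heme into iron, carbon monoxide and biliverdin, and it also answers to factors outside the NRF2 system, among them the heat shock factor HSF1. Granulosa cells make steroid hormones, and the mitochondrial steps of steroid synthesis are a source of reactive oxygen species. The comparisons below ask whether HMOX1 was higher with or without the rest of this gene set.

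The deposited values were FPKM, which scale fragments by gene length and library size, and the reads behind them could be recovered as whole numbers, 15547851 to 18280415 per library. At this depth 3 reads on a gene of 1 kb are worth 0.152 to 0.2 FPKM. Between replicates the chi-square per gene on these reads was 2.48 to 9.23 for KGN labels and 16.9 to 98.9 for COV434 labels, so the COV434 values carry far more replicate error. Mitochondrially encoded genes took 7.71% to 13.5% of reads in the libraries labelled COV434, with the highest share in treated library 1.

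Several markers checked went against the line labels. FOXL2, the transcription factor that defines granulosa cells, was at 0 to 0.0195 FPKM in the 6 libraries labelled KGN and at 11.5 to 14 FPKM in the 6 labelled COV434. The steroid synthesis enzyme gene CYP11A1 was 0 in every library labelled KGN and 37.1 to 52.2 FPKM in those labelled COV434, as was the keratin gene KRT7 with 400 to 541 FPKM. WT1 went the other way, with 45.9 to 61.4 FPKM in the libraries labelled KGN and 0 in the others. The chromatin remodeller SMARCA2 stayed under 0.01 FPKM in the libraries labelled KGN and was 4.51 to 6.48 FPKM in those labelled COV434. Of the 13 granulosa markers, 10 were under 1 FPKM in all 6 libraries labelled KGN and 8 in all 6 labelled COV434. The summed level of the 4 immune markers stayed at or below 0.44 FPKM in all 12 libraries, and that of the 5 epithelial markers was at most 0.0853 FPKM in those labelled KGN. The libraries are therefore called by their labels throughout, and which line each set is was not tested. Were the labels of both lines exchanged, every value given by line below would belong to the other line.

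The antioxidant response element is held here by its core letters TGACNNNGC, read on both strands, and the related TRE by TGACTCA, which can overlap it. Windows from 250 bases before to 50 bases after each gene start were taken from RefSeq on GRCh38.p14, and 9 of the 10 members had a window, HMOX1 being the one without an entry. The element's core was found in windows of 4 members, GCLM, KEAP1, ME1 and TXNRD1, against 16.1% of all genes and 16 of the 40 other NRF2 pathway genes in the table. The TRE letters were found in ME1 and OSGIN1, against 6.05% of all genes. These stretches of 39 or 37 bases show the matched letters in their surroundings, 1 match of the element's core per gene start, picked after the matches were seen. Cores not shown begin 54 bases before the start of KEAP1, 8 before the first of TXNRD1 and 11 after that of ME1. They run 5′ to 3′ on the gene's strand, with the matched letters in capitals.
GCLM, chr1:93909441-93909479, minus strand: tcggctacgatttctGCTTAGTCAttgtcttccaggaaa
KEAP1, chr19:10502779-10502817, minus strand: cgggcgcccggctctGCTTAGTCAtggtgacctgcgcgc
TXNRD1, chr12:104215665-104215703, plus strand: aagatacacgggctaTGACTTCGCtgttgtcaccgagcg
TXNRD1, second start, chr12:104286915-104286953, plus strand: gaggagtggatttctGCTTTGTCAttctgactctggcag
ME1, chr6:83431165-83431203, minus strand: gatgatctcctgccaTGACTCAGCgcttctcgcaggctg
OSGIN1, TRE, chr16:83953128-83953164, plus strand: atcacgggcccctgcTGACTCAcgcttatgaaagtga
GCLM and KEAP1 held the same 9 letters, 34 and 31 bases before their starts. In ME1 the element's core and the TRE match started on the same base, 137 bases before the start. Sequence outside these windows was not searched, so a member without a match here may still hold the element elsewhere. A match is a description of the letters, and the response of each gene follows below.

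In the libraries labelled KGN, HMOX1 was far higher after 77-39, and part of the NRF2 set was moderately higher beside it. HMOX1 (ENSG00000100292, chr22:35380361-35394214, GRCh38) measured 16.4, 16.7 and 15.2 FPKM in the untreated libraries and 104, 101 and 107 FPKM in the treated ones. The means were 16.1 ± 0.782 and 104 ± 2.68 FPKM (SD, n = 3), a ratio of 6.45, and the groups did not overlap. In bulk RNA, more cells with a transcript and more of it per cell cannot be told apart. HMOX1 rested on 186 to 4546 reads per library and its span overlaps no other annotated gene.

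Glutathione synthesis differed between its subunits. GCLM, the modifier subunit of glutamate-cysteine ligase, read 8.28, 9.04 and 9.62 FPKM untreated and 13.5, 13.1 and 13.2 FPKM treated, a ratio of means of 1.47. Its catalytic partner GCLC read 1.93, 1.6 and 1.9 FPKM against 2.24, 1.96 and 2.09 FPKM, a ratio of 1.16. Both were higher in all 3 treated libraries than in any untreated one, GCLC by a margin of 0.03 FPKM, within the SD of either group.

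TXNRD1, the cytosolic thioredoxin reductase, read 26.8, 28.2 and 27.2 FPKM untreated and 34.2, 34.6 and 33.4 FPKM treated. OSGIN1, a stress-induced growth inhibitor gene, was low, with 0.779, 0.846 and 0.734 FPKM untreated and 1.29, 2.07 and 1.56 FPKM treated. Both separated the groups, with ratios of means of 1.24 and 2.08.

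The other enzymes gave overlapping groups or almost no reads. NQO1, the quinone reductase that is the usual reporter of NRF2 activity, read 6.98, 6.94 and 7.92 FPKM untreated and 6.66, 6.47 and 7.46 FPKM treated, and its groups overlapped at a ratio of 0.943. SRXN1, the sulfiredoxin that restores oxidized peroxiredoxins, read 2.82, 2.32 and 2.22 FPKM against 2.86, 2.02 and 2.62 FPKM, also overlapping. ME1, the cytosolic malic enzyme that supplies NADPH, had 1 read in all 3 untreated libraries together and 1 in the treated ones, so no change in it was detectable at this depth.

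Of the pathway's own regulators, NFE2L2 read 15, 16.3 and 17 FPKM untreated and 17.1, 16.7 and 17.4 FPKM treated, with overlap. KEAP1 read 18.9, 20 and 20.5 FPKM untreated and 15.2, 15.8 and 15.4 FPKM treated, lower in every treated library, at a ratio of 0.781. The span of NFE2L2 overlaps 11 annotated genes, among them AGPS on the opposite strand, and that of TXNRD1 overlaps the pseudogene RPL18AP3, which itself was listed at up to 384 FPKM. How strand was treated in the counting is not given in the sources used here, which leaves the NFE2L2 values uncertain to that extent. RPL18AP3 lies on the same strand as TXNRD1, so strand could not separate their reads, and the TXNRD1 values are uncertain under either setting.

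**Figure D1:**
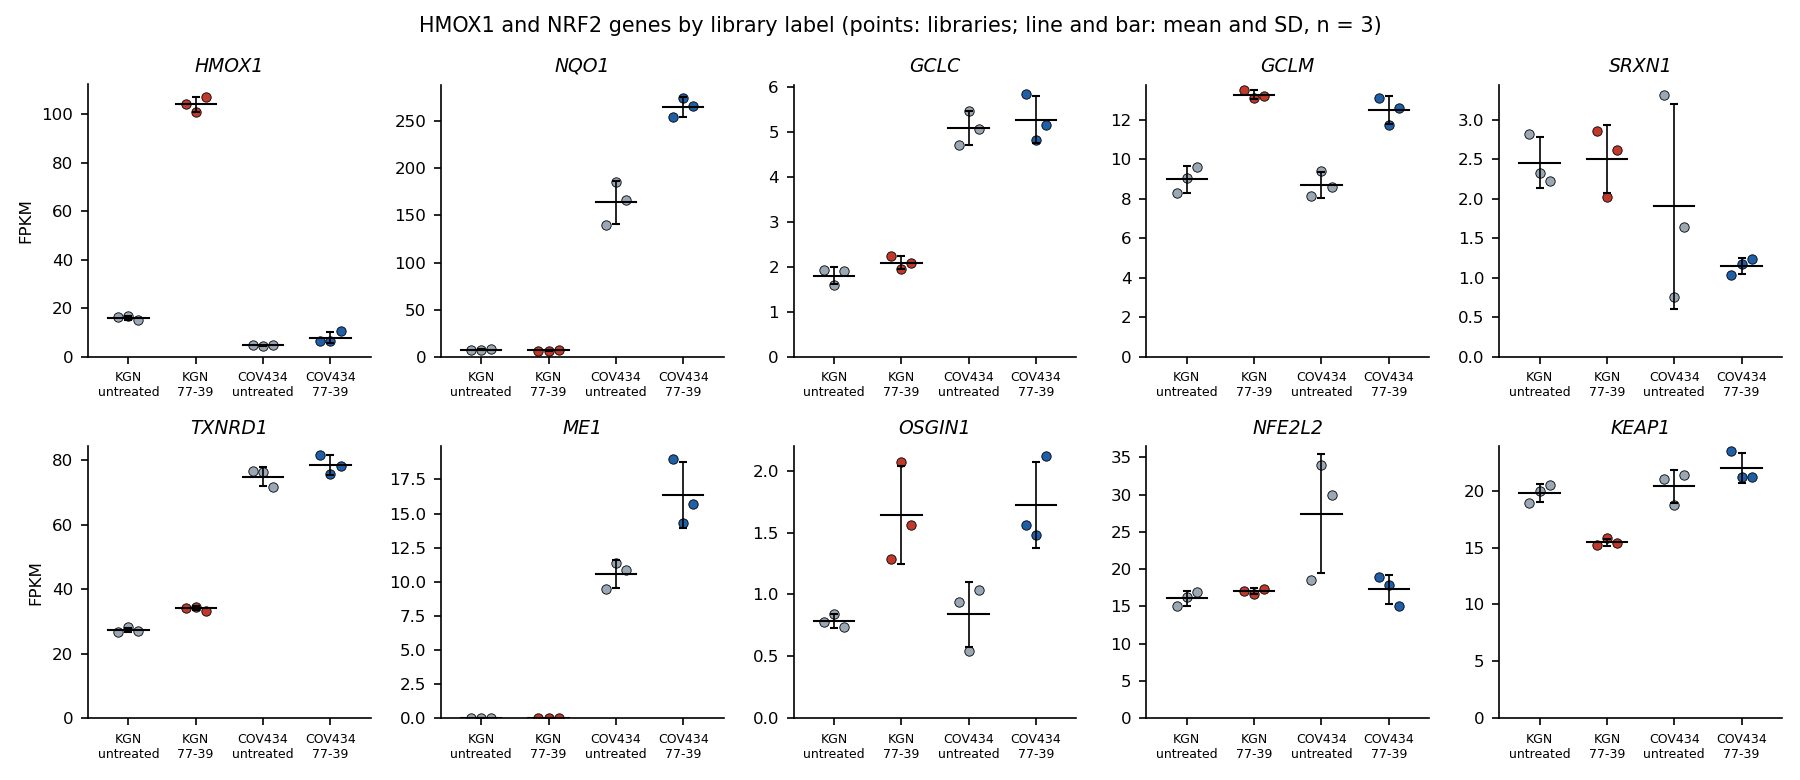
FPKM of the 10 members (vertical axes, each from 0) in the 4 groups of 3 libraries (horizontal axes), with points for libraries and a line and bar for the mean and SD. HMOX1 stands at 101 to 107 FPKM in the treated libraries labelled KGN against at most 16.7 FPKM in all others, while NQO1 stands at 6.47 to 7.92 FPKM in all 6 libraries labelled KGN.

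On the log2 scale of FPKM + 1, the differences in the libraries labelled KGN were 2.62 for HMOX1 (SE 0.05), 0.55 for OSGIN1 (SE 0.13), 0.51 for GCLM (SE 0.06), 0.31 for TXNRD1 (SE 0.04) and -0.34 for KEAP1 (SE 0.05). This scale understates low genes, and with a pseudocount of 0.1 the OSGIN1 difference was 0.95. The remaining 4 differences lay between -0.07 for NQO1 and 0.14 for GCLC. By the fit over all genes, 4 of the 9 members that passed the filter at a mean of 1 FPKM would be called higher and 1 lower, where 17.6% of all tested genes were called higher and 16.4% lower. Without untreated library 3 or treated library 2, OSGIN1 left that count. Of the same 9 members, 5 were higher and 1 lower with no overlap, against 26.3% and 23.4% of all tested genes. These counts describe members chosen by this contrast, and nothing is read from them.

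In the libraries labelled COV434, which did not choose the members, NQO1 and HMOX1 were both higher after 77-39, each by less than the 6.45-fold of HMOX1 above, and no member passed the adjusted test. NQO1 read 140, 186 and 166 FPKM untreated and 254, 275 and 266 FPKM treated, with no overlap and a ratio of means of 1.62. Its log2 difference was 0.70 with a 95% interval of 0.31 to 1.09, at an unadjusted p of 0.00329 and an adjusted p of 0.237 (limma). The adjusted p ranged from 0.00602 to 0.835 over the alternatives.

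HMOX1 read 4.67, 4.6 and 4.77 FPKM untreated and 6.42, 6.64 and 10.5 FPKM treated. Treated library 3 stood above the other treated libraries, and all 3 were above the untreated ones. The log2 difference was 0.61 with a 95% interval of 0.17 to 1.05 and an adjusted p of 0.392 (limma), and it was 0.41 without treated library 3.

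GCLM read 8.12, 9.41 and 8.58 FPKM untreated and 13.1, 11.7 and 12.6 FPKM treated, close to its levels in the libraries labelled KGN. ME1, which was almost absent there, read 9.45, 11.4 and 10.9 FPKM untreated and 19, 14.3 and 15.7 FPKM treated. OSGIN1 read 0.942, 0.544 and 1.04 FPKM against 1.56, 1.48 and 2.12 FPKM. These 3 genes also separated the groups, with log2 differences of 0.47, 0.58 and 0.57 and adjusted p-values of 0.327, 0.301 and 0.415 (limma).

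NFE2L2 was lower, at 18.9, 17.9 and 15.1 FPKM treated against 18.5, 34 and 29.9 FPKM untreated. Untreated library 1 lay within the treated range, so the groups overlapped, and the log2 difference of -0.60 had an adjusted p of 0.523 (limma). SRXN1 spread from 0.763 to 3.31 FPKM over the untreated libraries alone, wider than its difference from the treated ones, at 1.04, 1.17 and 1.24 FPKM. Without untreated library 1, its log2 difference went from -0.34 to -0.0043.

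TXNRD1, GCLC and KEAP1 had treated and untreated libraries that overlapped, and none passed the test. TXNRD1 read 76.8, 76.4 and 71.7 FPKM untreated and 81.7, 75.8 and 78.1 FPKM treated. GCLC read 4.72, 5.48 and 5.07 FPKM against 5.85, 4.83 and 5.15 FPKM. KEAP1 read 21, 18.7 and 21.4 FPKM against 23.5, 21.2 and 21.2 FPKM, with a log2 difference of 0.10 and a 95% interval of -0.21 to 0.42.

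Over all genes, this comparison called 0.0415% of 12060 at an adjusted p under 0.05, and 0 of the 10 members (limma). Voom of limma on the recovered reads also called 0 members, and so did blocking on the library number. That block called 0.721% of all tested genes and gave NQO1 an adjusted p of 0.0527 (limma). A fit of all 12 libraries, which shares 1 estimate of the spread, called 4 members, namely NQO1, HMOX1, GCLM and ME1. At an unadjusted p under 0.05, 5 members were higher and 1 lower, where 3.52% of all tested genes were higher and 4.49% lower. With no overlap, 5 of 10 members were higher, against 6.23% of all tested genes. Member genes were picked together, so these shares are a description of the list.

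**Figure D2:**
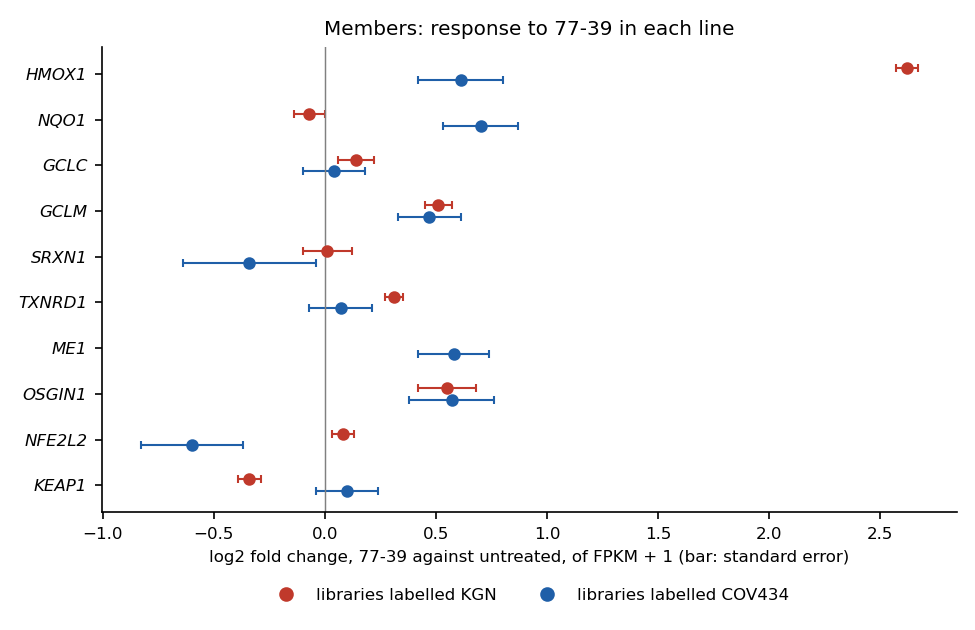
Difference on the log2 scale of FPKM + 1 between 77-39 and untreated libraries (horizontal axis) for the 10 members (vertical axis), with points and standard errors for the libraries labelled KGN and COV434 (n = 3 against 3 each). HMOX1 lies at 2.62 in KGN and 0.61 in COV434, NQO1 at -0.07 and 0.70, and ME1 has no KGN point since it did not pass the filter.

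The level of HMOX1 was also set against that of NQO1 within each library. The ratio of HMOX1 to NQO1, in FPKM, was 1.92 to 2.41 in the untreated and 14.3 to 15.7 in the treated libraries labelled KGN. In those labelled COV434 it was 0.0247 to 0.0333 untreated and 0.0241 to 0.0397 treated, so these groups overlapped. Within the untreated libraries labelled KGN the order of mean FPKM ran TXNRD1, KEAP1, HMOX1, NFE2L2, GCLM, NQO1, SRXN1, GCLC, OSGIN1 and ME1. HMOX1 and NFE2L2, both at 16.1 FPKM, did not differ beyond their spread there. After 77-39, HMOX1 stood first, at 104 FPKM against 34.1 ± 0.634 FPKM for TXNRD1 (SD, n = 3). For COV434, NQO1 and TXNRD1 led with and without 77-39, and HMOX1 was eighth of 10 untreated at 4.68 FPKM and seventh treated at 7.86 FPKM.

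Without 77-39, NQO1, ME1, TXNRD1 and GCLC were lower in the libraries labelled KGN than in those labelled COV434, and HMOX1 was higher. These are the same untreated libraries that serve as controls above. HMOX1 had 16.1 FPKM against 4.68 FPKM, a log2 difference of 1.59 (SE 0.08) with an adjusted p of 3.2e-06 (limma). NQO1 had 7.28 ± 0.552 FPKM against 164 ± 23 FPKM (SD, n = 3), a log2 difference of -4.31 with an adjusted p of 3.49e-07 (limma), 22.5-fold lower.

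ME1 was the most unequal member. The 3 untreated libraries labelled COV434 held 1793 ME1 reads and the 3 labelled KGN held 1, a ratio of 1971 after division by library size, with a 95% counting interval of 353 to 77907. TXNRD1 and GCLC were lower in KGN as well, by 2.74-fold and 2.80-fold, with log2 differences of -1.42 and -1.11. NFE2L2 had a log2 difference of -0.69 and an adjusted p of 0.0262 (limma), a call lost on leaving out any 1 of the 6 libraries except untreated COV434 library 1, at adjusted p-values of 0.0618 to 0.089. It was also lost with no filter (adjusted p 0.0556, limma), when scaled by recovered reads (0.0829) and by voom (0.0604).

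GCLM and KEAP1, by contrast, had log2 differences of 0.04 (95% interval -0.18 to 0.26) and -0.04 (95% interval -0.25 to 0.18), and the sign of KEAP1 turned to 0.16 when libraries were scaled by recovered reads. SRXN1 had an adjusted p of 0.352 (limma), and 0.0159 without untreated COV434 library 1. OSGIN1 was under the filter. In all, 1 of 9 tested members was higher and 5 lower in KGN, where 32.6% of all tested genes were higher and 36.4% lower. Scaling by recovered reads moved the median of all genes in this comparison by 0.17 on the log2 scale.

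**Figure D3:**
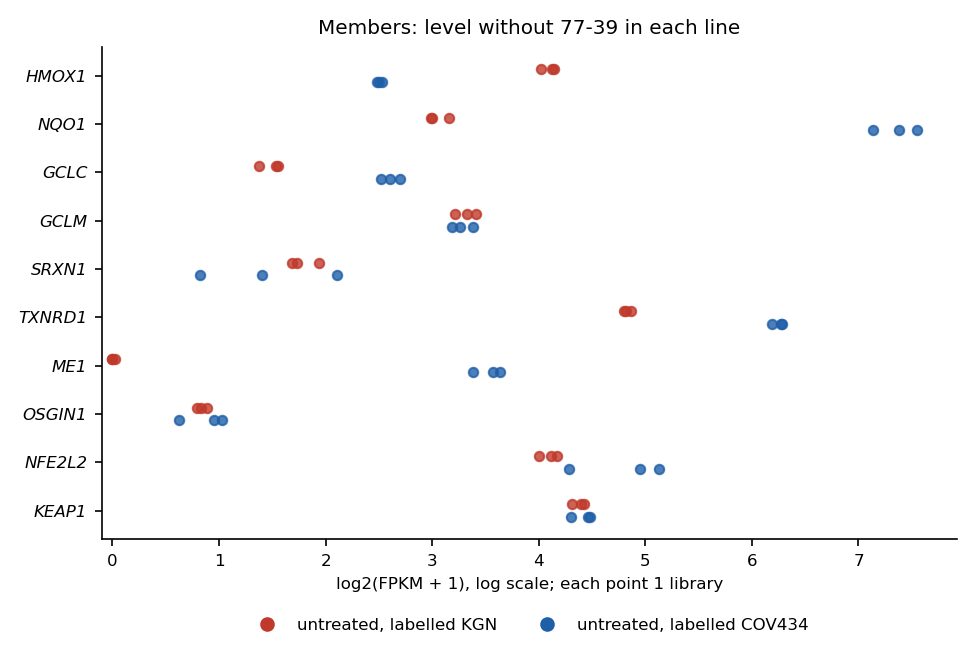
Level of each member in the untreated libraries as log2(FPKM + 1) (horizontal axis, log scale), with 1 point per library and 3 libraries per label. NQO1 and ME1 lie farthest apart, NQO1 at 6.94 to 7.92 FPKM in KGN and 140 to 186 FPKM in COV434, while GCLM and KEAP1 overlap.

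The other NRF2 pathway genes, 54 genes that are no members, gave a mixed answer in the libraries labelled KGN. Of 35 tested, 13 rose and 7 fell after 77-39 at an adjusted p under 0.05 (limma), where 17.6% of all tested genes rose and 16.4% fell, with a median log2 difference of 0.13 against 0.01 for all genes. Without untreated library 3 the number was 8 and 4, and 12 of the 20 calls held with each of the 6 libraries left out.

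Of the 6 tested genes of iron storage and heme recycling, 4 rose, where 17.6% of all tested genes rose. With same-numbered libraries blocked, 1 of the 6 was called, where 3277 of all 12671 tested genes were. FTL, the ferritin light chain, rose from 332, 333 and 295 FPKM to 542, 587 and 670 FPKM, with a log2 difference of 0.90 and an adjusted p of 0.000989 (limma). The ferritin heavy chain FTH1 had 72.2, 80.8 and 73.3 FPKM against 91.9, 84.7 and 107 FPKM, the biliverdin reductase BLVRB had 62.9, 63.4 and 58.5 FPKM against 71.7, 73.8 and 84.2 FPKM, and the heme transporter SLC48A1 had a log2 difference of 0.26. These last 3 passed at adjusted p-values of 0.0358, 0.0169 and 0.0296 (limma), and each lost its call on leaving out untreated library 3, FTH1 in 4 and SLC48A1 in 5 of the 6 fits with 1 library left out. Ferritin genes have many processed copies, so their counts are uncertain. BLVRA and the constitutive oxygenase HMOX2 had log2 differences of 0.04 and 0.06 and did not pass.

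In glutathione metabolism 4 of 9 tested genes rose and 1 fell, where 17.6% of all tested genes rose and 16.4% fell. SLC7A11, the cystine importer, rose from 9.12, 10.2 and 9.9 FPKM to 19.1, 19.5 and 17.8 FPKM, a log2 difference of 0.89 with an adjusted p of 0.00022 (limma). The exporter ABCC4 rose by 0.43 and GGT1, which starts the breakdown of glutathione, fell by 0.28, a call lost when any 1 library was left out. SLC7A11 and SESN2, which rose by 0.52, are also known targets of ATF4. In the thioredoxin group 3 of 4 rose, SESN2 with PRDX1 and PRDX6, the last of these not holding without untreated libraries 2 or 3 or treated libraries 2 or 3.

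The NADPH suppliers split. IDH1, the cytosolic isocitrate dehydrogenase, rose from 15.1, 15.7 and 14.6 FPKM to 40, 41.8 and 38.9 FPKM, the highest log2 difference of the list at 1.36 with an adjusted p of 6.83e-05 (limma). Of the pentose phosphate genes, TKT fell by 0.49, PGD by 0.23 and TALDO1 by 0.18 on the log2 scale, with adjusted p-values of 0.000876, 0.00934 and 0.0394 (limma). TALDO1 lost its call on leaving out 4 of the 6 libraries.

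Carbonyl and quinone detoxification had no gene that rose among 7 tested, and 2 that fell. Over all tested genes, 17.6% rose and 16.4% fell. The aldehyde dehydrogenase ALDH7A1 fell by 0.35 and the aldose reductase AKR1B1 by 0.27, with adjusted p-values of 0.00256 and 0.00915 (limma). Of the signaling targets 1 of 4 rose, SQSTM1, the autophagy receptor that can bind KEAP1, from 10.3, 10.1 and 9.53 FPKM to 12.2, 12.2 and 13.7 FPKM.

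Under the COV434 label, 0 of the 45 tested genes of this list passed the adjusted test (limma), 0 by voom, 1 when same-numbered libraries were blocked and 5 when all 12 libraries were fitted together. The 1 gene was AKR1B1, with an adjusted p of 0.0369 under the block and 0.182 without (limma). At an unadjusted p under 0.05, 7 were higher and 1 lower, against 3.52% and 4.49% of all tested genes. With the block 17 were higher and 2 lower, against 6.85% and 7.57%. The median log2 difference was 0.24 against -0.02 for all genes. AKR1B1 read 952, 1109 and 1111 FPKM untreated and 526, 561 and 657 FPKM treated. The aldehyde dehydrogenase ALDH3A1 went the other way, at 3.93, 3.47 and 3.45 FPKM against 8.39, 6.64 and 6.48 FPKM, and ALDH3A2 with it at 15.7, 15.3 and 14.5 FPKM against 23.7, 22.4 and 22.8 FPKM. The other 5 were TRIM16, SLC48A1, FTL, PANX2 and PIR, with log2 differences of 0.43 to 0.65. FTL read 1848, 2413 and 2410 FPKM untreated and 3083, 3638 and 3651 FPKM treated.

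**Figure D4:**
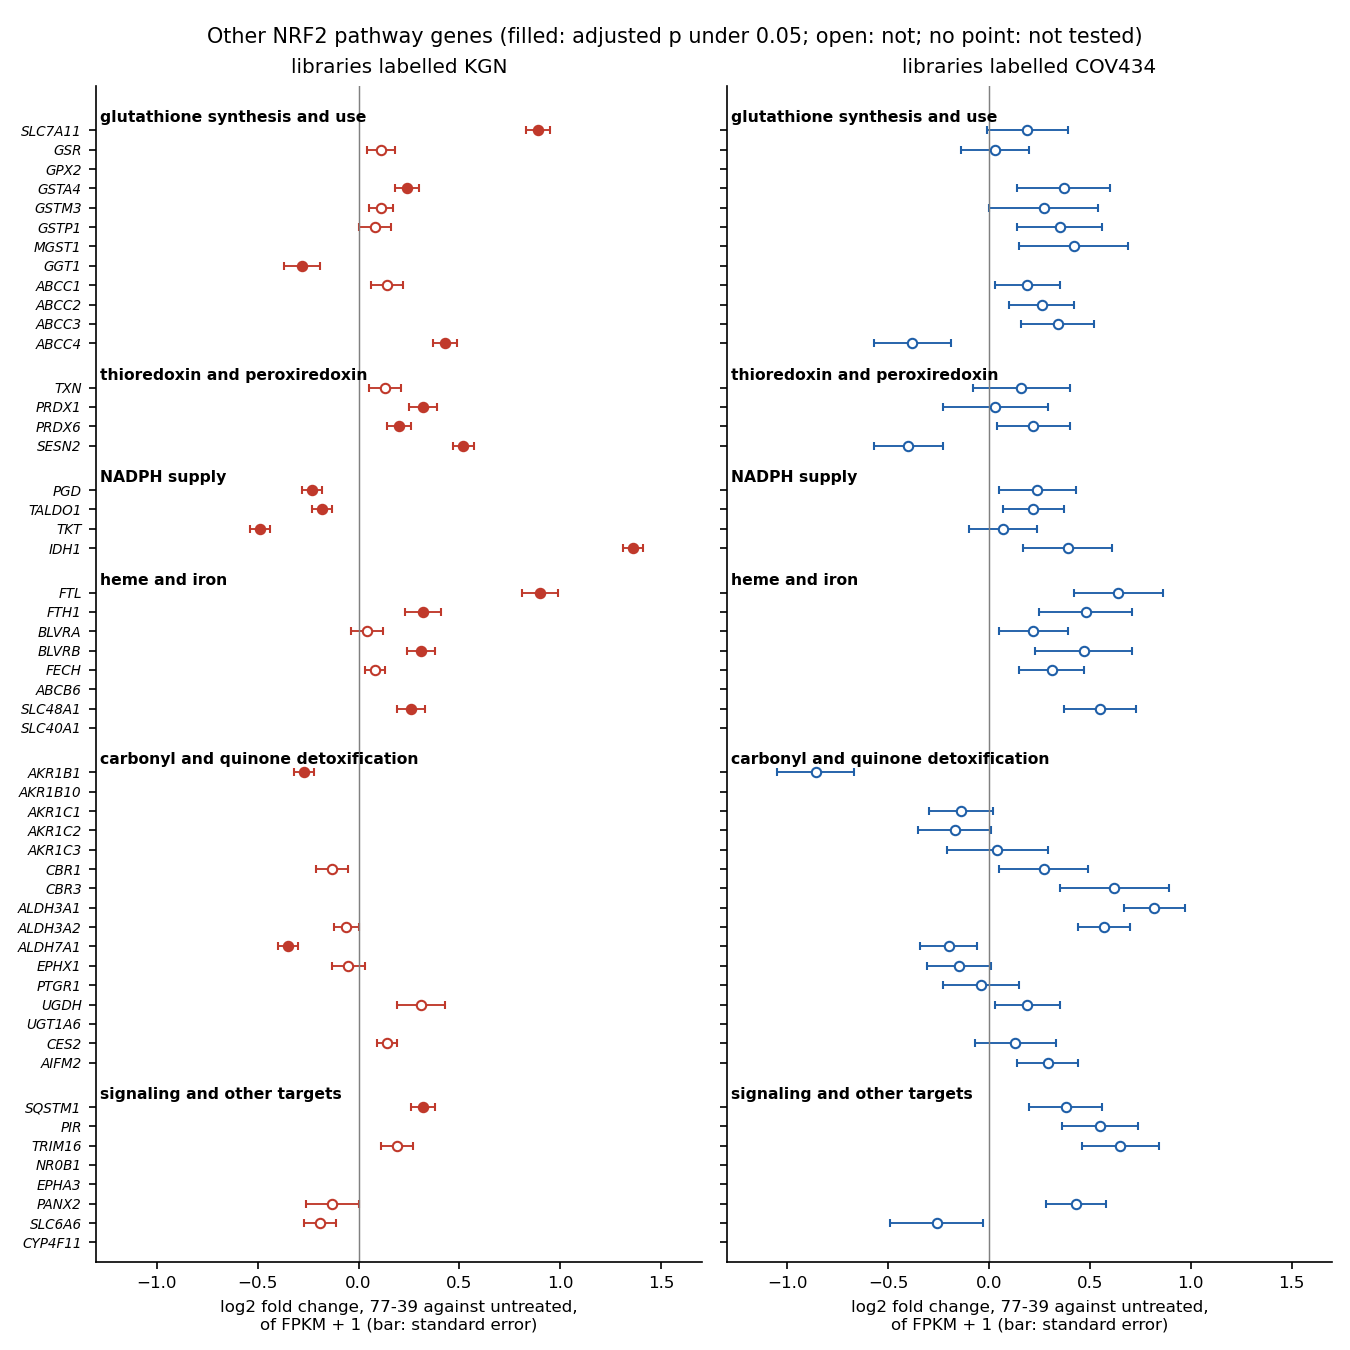
Difference on the log2 scale of FPKM + 1 between 77-39 and untreated libraries (horizontal axes, bars for standard errors) for 52 of the 54 other NRF2 pathway genes by role (vertical axis), in the libraries labelled KGN (left) and COV434 (right). Filled points passed an adjusted p under 0.05, 18 of 33 plotted in KGN and 0 of 43 in COV434, and genes with no point were not tested.

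Without 77-39, 31 of 45 tested genes of this list were lower in the libraries labelled KGN and 7 higher, against 36.4% and 32.6% of all tested genes, and the median log2 difference was -1.17 against -0.02 for all genes. These calls held in every fit with 1 library left out that tested them, but GGT1 passed the filter in only 3 and AKR1C2 in only 4 of the 6 such fits. AKR1B1 had 28.4 ± 1.5 FPKM against 1057 ± 91.2 FPKM (SD, n = 3), and the glutathione transferase MGST1 0.145 ± 0.0632 FPKM against 23.9 ± 7.19 FPKM. PIR, an iron-binding NRF2 target, had no read in the untreated libraries labelled KGN and 15, 18.5 and 18.9 FPKM in the others, at least 811-fold lower against a floor of 3 reads over the group. PTGR1 and AKR1C3 were also among the 5 lowest, at 0.181 and 0.0339 FPKM against 17.1 and 13.5 FPKM, though AKR1C3 can share reads with its close paralogs.

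The 7 higher genes included enzymes of the same system. The glutathione transferase GSTP1 had 213 ± 3.35 FPKM in the libraries labelled KGN against 40 ± 8.77 FPKM, and the epoxide hydrolase EPHX1 had 257 ± 26.4 FPKM against 110 ± 9.92 FPKM (SD, n = 3). GSTA4, SESN2 and GGT1 had log2 differences of 1.92, 1.27 and 0.84.

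Partners and competitors of NRF2 followed no single direction. Under the KGN label, 4 of 16 tested regulators rose and 1 fell, where 17.6% of all tested genes rose and 16.4% fell, and 2 rose without untreated library 3. The small MAF gene MAFF rose from 2.25, 2.1 and 2.41 FPKM to 4, 3.81 and 3.71 FPKM, with a log2 difference of 0.58 and an adjusted p of 0.00111 (limma). MAFG rose from 14.1, 15.1 and 15.2 FPKM to 19.6, 20.3 and 19.7 FPKM, while MAFK differed by -0.01 on the log2 scale. BACH1, the repressor of HMOX1, rose as well, from 2.4, 2.53 and 2.61 FPKM to 3.03, 3.51 and 3.11 FPKM. Its adjusted p of 0.0237 (limma) passed 0.05 on leaving out any untreated library or treated library 2, and reached at most 0.0804 over the 6 fits. CUL3, the ligase scaffold, differed by 0.09 and did not pass.

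Of 15 regulators tested under the COV434 label, 0 passed the adjusted test (limma). At an unadjusted p under 0.05, 1 was higher and 2 lower, against 3.52% and 4.49% of all tested genes. MAFK read 34.8, 23.8 and 23.6 FPKM untreated and 14.7, 13.9 and 15.4 FPKM treated, and BACH1 read 9.07, 10.4 and 8.36 FPKM against 8.24, 6.52 and 4.33 FPKM. The higher one was MAFG, at 14.4, 13.4 and 13.3 FPKM against 15.8, 17.9 and 19.8 FPKM. The response of MAFF differed between the lines by 0.89 on the log2 scale, with an adjusted p of 0.00506 for the interaction (limma), and that of MAFK by 0.82 with an adjusted p of 0.0394 (limma). For BACH1 the difference between the lines was 0.78 with an adjusted p of 0.1 (limma). Untreated MAFF, MAFK and BACH1 were lower in the libraries labelled KGN, by 1.14, 3.08 and 1.55 on the log2 scale, all with adjusted p-values under 0.05 (limma).

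**Figure D5:**
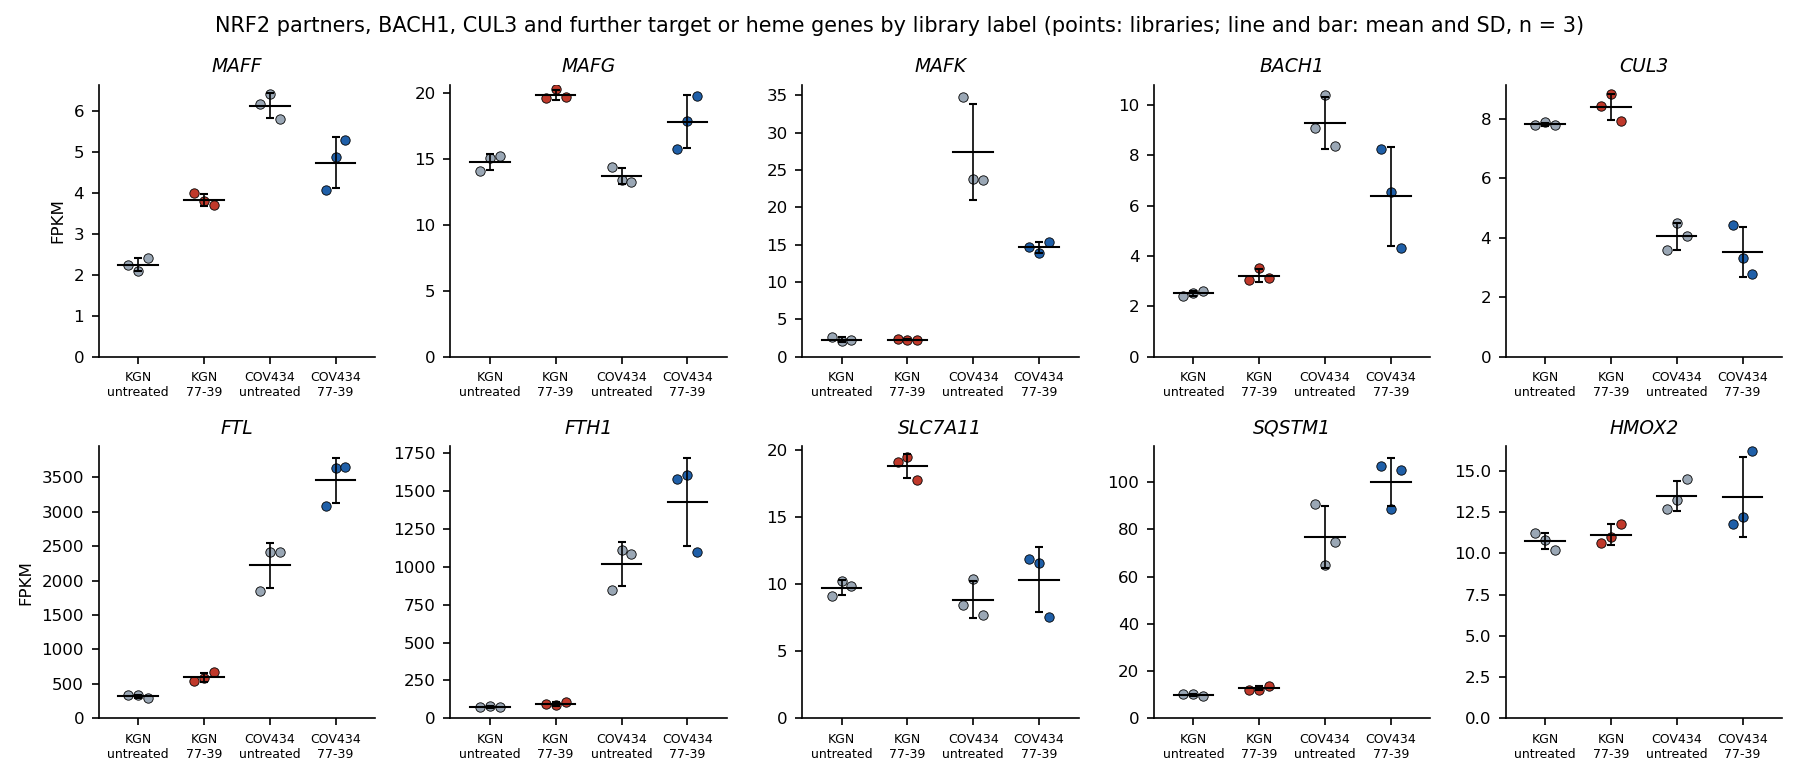
FPKM of NRF2 partners and regulators, 4 target genes and HMOX2 (vertical axes, each from 0) in the 4 groups of 3 libraries (horizontal axes), with points for libraries and a line and bar for the mean and SD. MAFF is higher after 77-39 in KGN, at 3.71 to 4 FPKM against 2.1 to 2.41 FPKM, and lower in COV434, at 4.07 to 5.29 FPKM against 5.82 to 6.41 FPKM, the latter with an adjusted p of 0.646 (limma).

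Other gene lists give the setting of HMOX1 in the libraries labelled KGN. Of 22 tested targets of ATF4, the factor of the amino acid and ER stress response, 15 rose and 3 fell (limma), where 17.6% of all tested genes rose and 16.4% fell, with a median log2 difference of 0.39. ATF4 itself read 260, 277 and 258 FPKM untreated and 224, 235 and 245 FPKM treated, with an adjusted p of 0.0541 (limma). Of 19 heat shock genes 6 rose and 2 fell, and 3 rose without untreated library 3. HSF1 read 12, 13.2 and 12.4 FPKM against 12, 10.9 and 11.7 FPKM and did not pass. HSPA1A, HSPA1B and DNAJB1, named below, had log2 differences of -0.26, -0.15 and 0.11 here and did not pass. HSPA8 had 0.36 with an adjusted p of 0.00323 (limma). Of 16 tested antioxidant genes outside the NRF2 set, 1 rose and 2 fell. Of 13 heme genes 2 rose and 2 fell, and 0 rose without untreated library 3. The shares of risen genes on these last 2 lists lie below the share over all genes. The ATF4 and heme lists share genes with the NRF2 list counted above. Among them are SLC7A11 and SESN2 for ATF4, and BLVRB and SLC48A1 for heme. Under the COV434 label none of these 4 lists had a gene past the adjusted test (limma). Blocking on the library number, which called 0.721% of all tested genes there, called 4 heat shock genes and 1 ATF4 target. These, named after their values were seen, were HSPA1A, HSPA1B, DNAJB1 and HSPA8, with adjusted p-values of 0.0225, 0.022, 0.0393 and 0.0424, and PHGDH with 0.0459 (limma), all higher after 77-39, though HSPA1A and HSPA1B are near-identical copies that can share reads. At an unadjusted p under 0.05 and with no block, 5 heat shock genes were higher and 0 lower, and 2 ATF4 targets were higher and 3 lower, against 3.52% and 4.49% of all tested genes. With the block, 6 ATF4 targets were lower, against 7.57%.

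The genes whose levels ran most like HMOX1 over the 12 libraries were SEPHS2, TMEM192, TMIE, SCARB2 and RAB29. Pearson's r of log2(FPKM + 1) to HMOX1 was 0.991 for SEPHS2 and 0.975 to 0.979 for the others, the highest of 13127 genes. The libraries fall into 4 groups, so r here mostly reads the group levels. SEPHS2, which makes the selenium donor for selenoproteins, had mean FPKM of 44.7 untreated and 85.9 treated under the KGN label, and 27.7 and 31.2 under the COV434 label. TMIE had 0.694 and 4.62 FPKM in the former and 0.237 and 0.23 FPKM in the latter. No member was among these 5.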

How the data were processed

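RNA of the 12 libraries was prepared with a TruSeq RNA kit per the labels and sequenced on a NovaSeq instrument. The submitters' processing notes name HISAT2 2.0.5 and mouse builds, although the gene IDs are human, and 58724 of 58735 genes have the coordinates of GENCODE release 29 on GRCh38. The counting tool is not given in the sources used here. The authors deposited FPKM, normalized for gene length and library size. In each library 100% of the values came out as whole reads at a tolerance of 0.05 reads, and 0 pairs of libraries were identical. The recovered reads served for the depth and for an alternative test, and precision is limited by counting and by 3 libraries a group.

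Each comparison was fitted alone with limma 3.58.1 in R 4.3.3 (lmFit, then eBayes with the trend option). Values entered as log2(FPKM + 1), genes whose mean was under 1 FPKM were left out, and p-values, two-sided, were adjusted after Benjamini and Hochberg across every gene tested. The comparisons were 77-39 against untreated in each line and the untreated lines against each other. The code was tested on simulated data. Deviations of same-numbered untreated and treated libraries correlated at 0.4, 0.474 and 0.166 in COV434, so the numbers may pair those libraries. The main fits and the interaction test did not use that pairing, which entered in the block on the library number. In KGN such deviations did not correlate.

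The members and the lists were chosen with earlier results of these data known. Besides the members, the text names up to 5 higher and 5 lower called genes of the NRF2 list in KGN and in the untreated lines, those with an unadjusted p under 0.05 in COV434, a set of partners and heme genes whatever their values, and the 5 genes most like HMOX1. PRDX1, PRDX6, PGD, TALDO1 and the genes that check the labels are named for completeness of a count. The values of 2 genes of the NRF2 list are not reported here, and both stay in the counts of that list. The difference between the lines was tested as an interaction over all 12 libraries, for list genes that are no members, and was added after seeing the data. The alternatives changed the pseudocount (0.1), the filter (0.1 FPKM or none), the scaling (median ratios or recovered reads), the model (voom on those reads, 1 fit of 12 libraries, or a block on the library number), or left out each library in turn. 0 columns of per-sample values were left unused.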

Additional observations from a re-analysis of the deposited data

Results flagged for a closer look

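For 9 list genes the response to 77-39 differed between the libraries labelled KGN and those labelled COV434, as KGN minus COV434 differences of log2 differences, either by the interaction test (limma, adjusted over all genes, added after seeing the data) or because the groups separated in opposite directions. Among the partners of NRF2, MAFF differed by 0.89 (adjusted p 0.00506, limma), from 0.58 in KGN to -0.32 in COV434, and MAFK by 0.82 (adjusted p 0.0394, limma). BACH1 separated the groups upward in KGN and downward in COV434, a difference of 0.78, but the test of that difference gave an adjusted p of 0.1 (limma). NFE2, a blood cell relative of NRF2, fell from 11.1 ± 0.584 to 5.22 ± 0.133 FPKM in the libraries labelled KGN (SD, n = 3). It was at most 0.46 FPKM in those labelled COV434, where a change could hardly show. Its difference of -0.99 (adjusted p 0.0251, limma) thus largely repeats the -0.96 in KGN.

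Of the other NRF2 pathway genes, SESN2 differed by 0.91 (adjusted p 0.0212, limma) and ABCC4 by 0.81 (adjusted p 0.0496, limma). Both were higher after 77-39 in KGN. In COV434 both had negative log2 differences, -0.4 and -0.38, that did not pass (adjusted p 0.63 and 0.707, limma). ALDH3A1 differed by -0.83 (adjusted p 0.0114, limma), but it had at most 0.0413 FPKM in any library labelled KGN. That difference thus largely repeats its 0.82 in COV434. ALDH3A2 differed by -0.63 (adjusted p 0.014, limma), higher after 77-39 in COV434 alone at an unadjusted p under 0.05. TALDO1, of the pentose phosphate route, separated the groups downward in KGN and upward in COV434, with a difference of -0.39, and its interaction test gave an adjusted p of 0.105 (limma). The replicate spread was far wider in COV434, and its part in these differences was not tested.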

How the results depend on the processing

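Of 476 values recomputed under alternatives, 447 were rated the same. For log2 differences in COV434 and between the untreated lines this means that they kept their direction and their side of the threshold. In KGN, where members had no test, it means that they moved by no more than about their standard error, whatever their sign. Counts of calls were rated more loosely, and 14 against 20 for the other NRF2 genes in KGN still rated the same. The HMOX1 log2 difference in KGN was 2.68 with a pseudocount of 0.1 and 2.69 by voom, and 2.58 to 2.64 with 1 library left out. The members counted in KGN were 4 to 5 with 1 library left out. Called genes among the other NRF2 genes in KGN numbered 20, but 12 with no filter, 6 in the fit of 12 libraries and 12 to 19 with 1 library left out. In COV434 the fit of 12 libraries called 4 members and 5 other NRF2 genes against 0 and 0, with HMOX1 unchanged in size at 0.61 and an adjusted p of 0.041 (limma, range over alternatives 0.041 to 0.989). The replicate block called 0 members and 1 other NRF2 gene in COV434, and changed no call of a member in COV434 or between the untreated lines. In KGN, where same-numbered libraries did not deviate together (r of -0.0164, -0.018 and -0.019), the block called 14 of the other NRF2 genes. Signs turned for values near 0. GCLC in COV434 was -0.0021 and -0.02 leaving out untreated or treated library 1, and -0.02 to 0.09 over all libraries left out. KEAP1 between the untreated lines was 0.16 scaled by recovered reads and 0.17 by voom. GCLM there was -0.0032 and -0.01, leaving out untreated COV434 library 1 or KGN library 3, and -0.01 to 0.09 over all. SRXN1 in KGN, at 0.01 in the main fit, was -0.0027 with median-ratio scaling. With 1 library left out it was -0.06 to 0.12, and these values still rated the same. The causes were not tested. Depth limits ME1 in KGN, with 1 read in 3 libraries.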
